A study of Mus musculus with 7 samples.

Results

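The comparison described here sets a single RNA-seq library of a CRISPR knockdown of Meteor, titled KD, beside a single library of its empty-vector control, titled Ctrl. These are 2 of the 7 libraries in the series, chosen by title and not by any measured value, and the other 5 serve as background. Meteor is a long non-coding RNA locus named in the series' title as a regulator of Eomes, and the comparison asks how the transcriptome differs when Meteor is targeted. All libraries came from embryoid bodies, which are free-floating clusters of differentiating embryonic stem cells, of the R1 mouse embryonic stem cell line. Cells were separated from feeder fibroblasts on gelatin, seeded at 500 cells per hanging drop of 27 µl in serum medium without Lif, pooled on day 2 and harvested on day 4. KD is labelled as a knockdown by CRISPR/dCas9 in the sample field and by CRISPR/Cas9 in the design text. The sources used here give neither the guide RNAs, the repressor, the number of clones nor the vector of Ctrl. The background libraries are titled WT1 and WT2 (wild type), pKO1 and pKO2 (Meteor promoter knockout) and pInv (Meteor promoter inversion). The genotype field contradicts the titles of all 5, so they are used here as a range and not as genotypes, while the fields of KD and Ctrl match their titles.

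Eomes encodes a T-box factor that acts in the primitive streak, the region of the early embryo where pluripotent epiblast cells become mesoderm or endoderm. Nodal, Wnt and Fgf signals induce the streak genes, cells leaving the streak switch on Mesp1 and Mesp2 and lose epithelial character, and the pluripotency factors Pou5f1, Sox2 and Nanog decline as they do so. Day 4 embryoid bodies hold a mixture of these states. In such bulk samples, fewer cells of a type and less RNA per cell cannot be told apart.

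KD held 2059522 expected counts and Ctrl 2034596, within the series' range of 1898350 to 2564478. Levels are in CPM (counts scaled to library size), adjusted over the 7 libraries by the TMM method, and 3 counts correspond to 1.38 CPM in KD and 1.52 in Ctrl. The precursor of ribosomal RNA, 45S, took 18.3% of the counts in KD and 22.5% in Ctrl (12.9% to 24.1% in the background), and 2 features with gene models of over 90 megabases, Fras1 (97.0) and Fgd5 (92.0), took 5.31% and 5.84% together. The labelled cell state was checked by its markers. The epiblast gene Pou5f1 had 1529 CPM in Ctrl and 1081 in KD, and the streak gene T, encoding brachyury, 339 and 357. The feeder fibroblast list of 13 genes, among them Col1a1, Col3a1 and Thy1, summed to 13.6 CPM in Ctrl and 21.1 in KD, with no member at 20 CPM. Meteor RNA itself was not analysed here because no feature carries its name, and the knockdown is thus unchecked.

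With 1 library a side there is no replicate check, no p-value and no error beyond counting. Ratios of KD to Ctrl are given with exact 95% intervals from the binomial distribution of the counts, which cover counting error only. A ratio to 0 counts is a lower bound, computed against a floor of 3 counts in Ctrl, and leaves out the counting error of KD. Among 5083 genes at 20 CPM or more in either library, 205 (4.03%) stood at least 2-fold higher in KD and 64 (1.26%) at least 2-fold lower. A ratio above 1 was found for 46.5% of the 5083. The median log2 ratio of all of them was -0.03, with an SD of 0.63 across genes. With plain totals the median moved to 0.10 and the calls to 302 higher and 39 lower. For comparison, the pairs of libraries that share a title were counted by the same rule. WT2 against WT1 gave 309 genes higher (5.99%) and 575 lower (11.1%), and pKO2 against pKO1 gave 57 higher (1.14%) and 216 lower (4.33%). In both directions together, 269 genes passed between KD and Ctrl, 273 between pKO2 and pKO1 and 884 between WT2 and WT1. With plain totals the WT pair gave 1014 genes and the pKO pair 257. The WT pair thus had more genes past 2-fold than KD and Ctrl under both scalings, while the pKO pair had about as many under the first and fewer with plain totals.

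**Figure D1:**
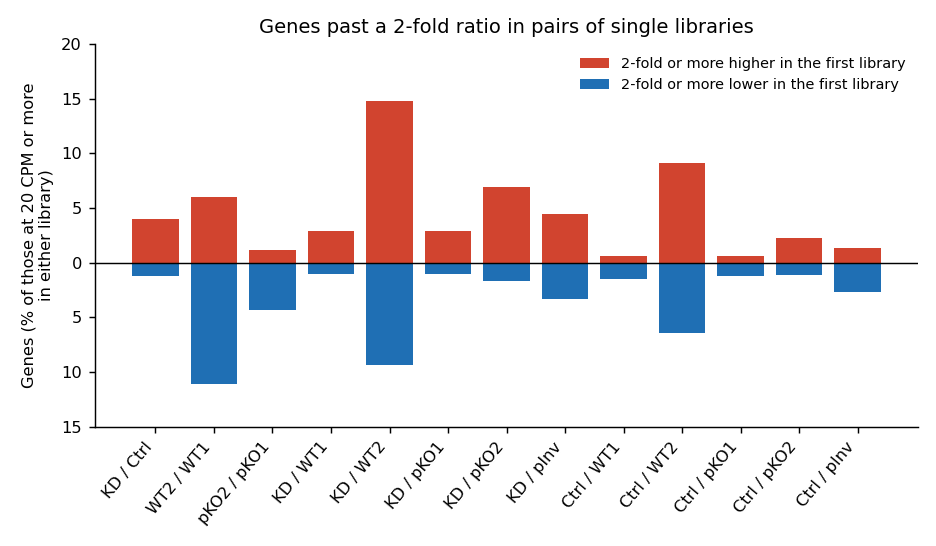
Percentage of genes at least 2-fold higher (red, upward) or lower (blue, downward) in the first library of each pair, among genes at 20 CPM or more in either, with 1 library a side in every bar. KD against Ctrl stands at 4.03% and 1.26%, with 269 genes past 2-fold in all, against 273 between pKO2 and pKO1 and 884 between WT2 and WT1.

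The called genes were also placed against the background libraries. Calling by the ratio of KD to Ctrl itself favours a high KD or a low Ctrl among higher genes, and the reverse among lower genes. The 20 CPM minimum also admitted many higher genes through KD alone. The counts below are therefore a description and cannot decide which library departed from the rest. Of the 205 genes higher in KD, 175 had KD as the highest of the 7 libraries, against 17.8% of all genes, and 35 had Ctrl as the lowest, against 8.20% of all. KD was at least 2-fold above the median of the other 5 for 115 of them, and Ctrl at least 2-fold below it for 33. Of the 64 lower genes, KD was the lowest of 7 for 52 (19.7% of all genes) and Ctrl the highest for 30 (11.5% of all). Some of these genes also varied between libraries that share a title. Of the 205, 57 (27.8%) were also at least 2-fold higher in WT1 than in WT2, against 10.8% of all genes, and they made up 9.91% of the genes of that pair. For pKO1 over pKO2 the count was 32 (15.6%, against 3.66% of all genes), or 14.8% of that pair's genes. Of the 64 lower genes, 7 (10.9%) were also at least 2-fold lower in WT1 than in WT2, against 3.78% of all genes. For pKO1 under pKO2 the count was 0, against 0.649% of all genes. Across genes the log2 KD to Ctrl ratio correlated with the WT1 to WT2 ratio at Pearson r = 0.36 (5057 genes) and with pKO1 to pKO2 at r = 0.19 (5052 genes). Genes are not independent replicates, and these values are a description. In the first of these pairs, as with KD and Ctrl, the library in the numerator had the lower 45S share (17.4% in WT1, 24.1% in WT2), while in the pKO pair it had the higher (21.3% in pKO1, 19.1% in pKO2). The part of that share in the counts was not tested.

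**Figure D2:**
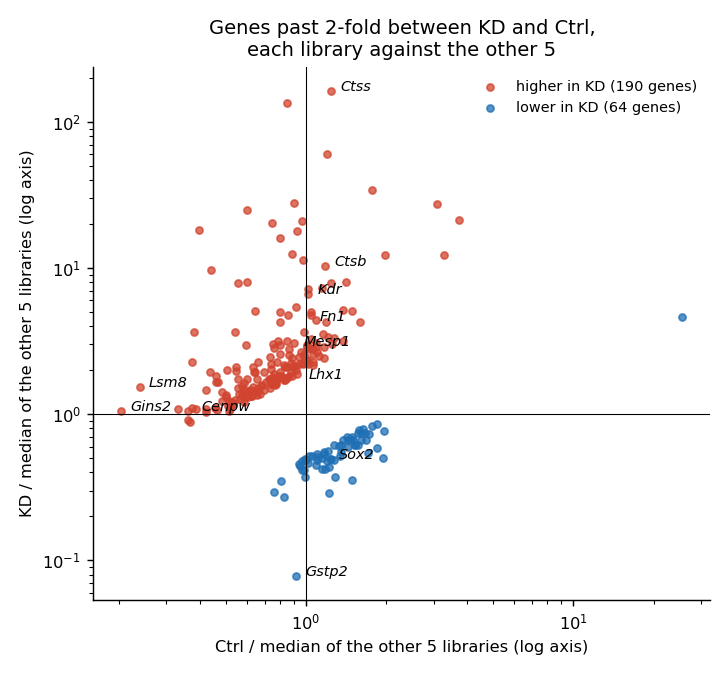
Each point is a gene past 2-fold between KD and Ctrl, placed by the ratio of Ctrl (horizontal) and of KD (vertical) to the median of the other 5 libraries on log axes, with lines at a ratio of 1. The 190 drawn of the 205 higher genes (the rest have a 0 in a ratio) lie mostly upward from the horizontal line, Kdr, Fn1 and Ctsb among them, while Lsm8, Gins2 and Cenpw lie to the left with KD near the background. All 64 lower genes are drawn.

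Eomes itself (NCBI gene 13813) stood alike in both libraries. Its level was 398 CPM in KD and 420 in Ctrl (ratio 0.948, interval 0.861 to 1.04). WT1 had 457, WT2 311, pKO1 336, pKO2 443 and pInv 388, so both values lie inside the background. With plain totals the ratio was 1.03, so its direction turned with the scaling. Of the 8 genes near Eomes that reached 20 CPM, 0 passed 2-fold (background shares 4.03% higher and 1.26% lower). Their median log2 ratio was -0.14. The noncoding gene 4933432G23Rik, which the reference lists next to Eomes, had 103 CPM in KD and 100 in Ctrl. Acvr2b, a receptor for Nodal and activins, had 287 CPM in KD and 256 in Ctrl (ratio 1.12, interval 0.997 to 1.27). Cmc1, a mitochondrial protein gene below the minimum of 20 CPM, had 15.6 CPM in KD, 1.52 in Ctrl and at most 3.80 in the others.

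Among the transcription factors and signals of the streak, 1 of 12 genes at 20 CPM passed 2-fold higher and 0 lower (background shares 4.03% and 1.26%). The list's median log2 ratio was 0.41. That gene was Lhx1, a LIM homeobox factor of the anterior streak, with 1133 CPM in KD and 490 in Ctrl (ratio 2.31, interval 2.15 to 2.49). It ranged from 58.0 CPM in WT2 to 880 in pKO2 in the background, so the distance between those 2 libraries is wider than that between KD and Ctrl. Evx1, a homeobox factor of the posterior streak, had 219 CPM in KD and 121 in Ctrl, with 35.8 to 144 in the others. Mixl1, another streak homeobox factor, had 126 CPM in KD and 80.9 in Ctrl, with 7.17 to 98.5 in the others. T had 357 against 339, close to level. Tdgf1, the Nodal co-receptor Cripto, had 370 CPM in KD and 255 in Ctrl (ratio 1.45, interval 1.30 to 1.63). In the other direction, Foxa2, a factor of anterior streak and endoderm, had 156 CPM in KD and 226 in Ctrl (ratio 0.690, interval 0.598 to 0.796), and Gsc 44.6 and 50.6. Both Foxa2 values lie inside the background of 84.2 to 310.

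As a list, genes of nascent mesoderm had a larger sum in KD than in each of the other 6 libraries. The 22 matched genes of that list summed to 987 CPM in KD, 447 in Ctrl and 278 to 578 in the background. Of the 9 at 20 CPM, 4 passed 2-fold higher and 0 lower (background shares 4.03% and 1.26%), with a median log2 ratio of 0.98. KD was the highest of 7 for 8 of the 9, against 17.8% of all genes. Mesp2, Wnt5a and Fgf3 reached 20 CPM only in KD, so they could pass in 1 direction only. The minimum also favoured KD as the highest library for these genes.

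Mesp1, a basic helix-loop-helix factor of the earliest mesoderm, had 242 CPM in KD and 71.3 in Ctrl. WT1 stood at 78.7 CPM, WT2 at 10.8, pKO1 at 67.5, pKO2 at 126 and pInv at 81.9. KD was thus 3.40 times Ctrl (interval 2.82 to 4.12) and above every library, while Ctrl lay among the rest. Its neighbour and paralog Mesp2, which also acts in somite formation, had 34.0 CPM in KD and 5.06 in Ctrl (ratio 6.73, interval 3.46 to 14.6), with 0.597 to 17.5 in the others. Wnt5a, a Wnt ligand of migrating mesoderm, had 28.0 CPM in KD and 5.06 in Ctrl, with 1.19 to 10.6 in the others. Fgf3, an Fgf ligand of the streak, had 21.6 CPM in KD, 4.04 in Ctrl, 0 counts in WT2 and up to 11.4 in the others. Both again had KD as the highest library and Ctrl inside the background. Below the minimum, Foxc1, a forkhead factor of paraxial mesoderm, had 16.1 CPM in KD and 0 counts in Ctrl (at least 10.6-fold higher), with 1.79 to 4.08 CPM in the others. Apln, the ligand of the apelin receptor, had 40.5 CPM in KD and 40.9 in Ctrl and did not share the difference.

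Several genes of vascular progenitors, cell adhesion and mesenchyme stood higher in KD as well. Kdr, the VEGF receptor that marks the progenitors of blood and vessels, had 119 CPM in KD and 18.2 in Ctrl (ratio 6.54, interval 4.60 to 9.55). WT1 stood at 17.9 CPM, WT2 at 6.57, pKO1 at 20.4, pKO2 at 39.6 and pInv at 10.6, all well under KD. Lmo2, a LIM-only cofactor of blood formation, had 17.0 CPM in KD and 0 counts in Ctrl (at least 11.2-fold higher), with 0 to 2.61 CPM in the others. Tal1, of the same list, went the other way at the floor, with 1 count in KD and 3 in Ctrl. Of the list's 24 genes, 11 had at most 3 counts in KD, Tal1, Cdh5 and Pecam1 among them. Flt1, a further VEGF receptor, had 63.0 CPM in KD and 38.9 in Ctrl, and Etv2, which drives blood and vessel fate, 25.3 and 22.2. Of the 3 vascular and cardiac genes at 20 CPM, Kdr alone passed 2-fold higher and 0 passed lower (background shares 4.03% and 1.26%). Kdr reached 20 CPM in KD only, so it could pass upward only. The list's median log2 ratio was 0.69.

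Fn1, the matrix protein fibronectin, had 590 CPM in KD and 129 in Ctrl (ratio 4.57, interval 4.00 to 5.25), against 31.7 CPM in WT2 and 268 in pKO2 at the ends of the background. Vim, the intermediate filament vimentin of mesenchymal cells, had 64.4 CPM in KD and 22.7 in Ctrl (ratio 2.83, interval 2.01 to 4.05), with 11.9 to 31.0 in the others. Cdh2, N-cadherin, had 210 CPM in KD and 108 in Ctrl (ratio 1.94, interval 1.65 to 2.29), with 23.3 to 145 in the others. In all 3, KD was the highest of 7. Cdh1, E-cadherin, had 597 CPM in KD and 473 in Ctrl, with 515 to 1365 in the others, so it was not lower in KD where Cdh2 was higher. The chemokine receptor Cxcr4, found on early endoderm and on mesoderm, had 39.5 CPM in KD and 5.06 in Ctrl (ratio 7.82, interval 4.05 to 16.9), with 0 to 9.51 in the others. The macrophage genes given further on moved with this group, and their part in Fn1, Vim and Cxcr4, which macrophages also express, was not tested.

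**Figure D3:**
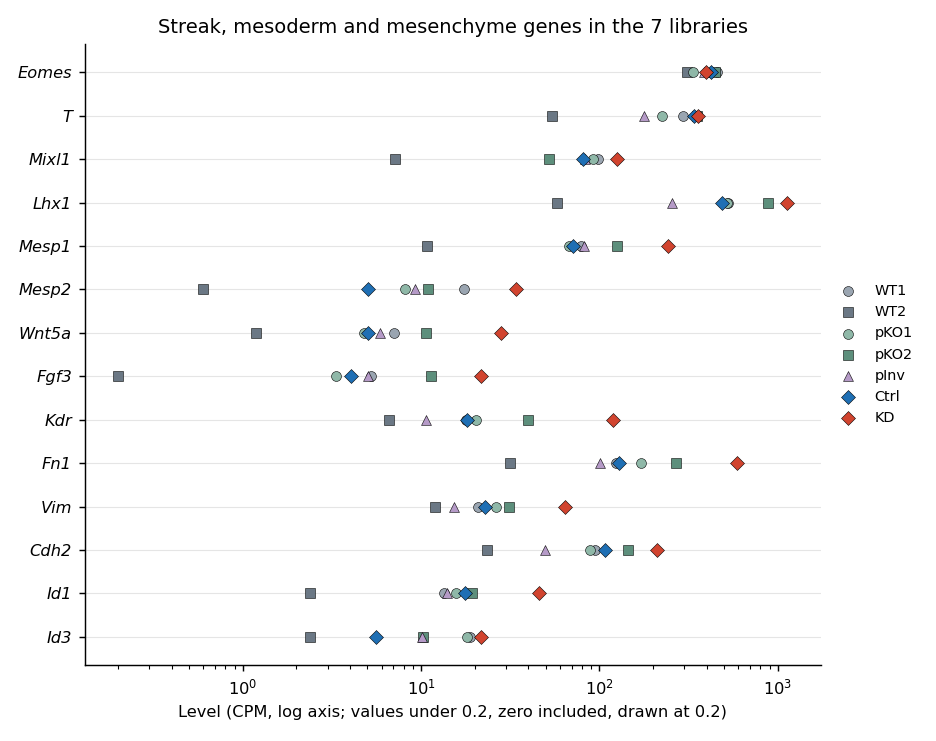
Levels of streak, mesoderm and mesenchyme genes (rows) in CPM on a log axis, with 1 marker per library and no error bars because each library is single. Eomes and T are close in KD (red diamond) and Ctrl (blue diamond), while for Mesp1, Kdr and Fn1 KD lies to the right of the other 6 libraries and WT2 (dark square) to the left.

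Signalling genes moved in mixed directions. In the Nodal list, 1 of 12 genes at 20 CPM passed 2-fold higher and 2 lower (background shares 4.03% and 1.26%), with a median log2 ratio of -0.03. The 2 lower genes, Lefty1 and Smad7, reached 20 CPM in Ctrl only and could pass downward only. Cfc1, the co-receptor Cryptic, had 56.1 CPM in KD and 20.2 in Ctrl (ratio 2.77, interval 1.93 to 4.07), yet pKO2 had 58.0. The ligand Nodal had 42.3 CPM in KD and 80.9 in Ctrl (ratio 0.523, interval 0.400 to 0.680), just inside the 2-fold threshold, and 67.2 to 98.8 in the others. The Nodal antagonists Lefty1 and Lefty2 differed in sign. Lefty1 had 10.6 CPM in KD and 26.8 in Ctrl (ratio 0.395, interval 0.231 to 0.655), whereas Lefty2 had 229 and 116 (ratio 1.97, interval 1.68 to 2.32). Smad7, an inhibitor of Nodal and BMP receptors, had 12.9 CPM in KD and 34.4 in Ctrl (ratio 0.374, interval 0.232 to 0.589), with 19.8 to 42.4 in the others.

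In the BMP list 2 of 9 genes passed 2-fold higher and 1, Smad7, lower (background shares 4.03% and 1.26%), and the median log2 ratio was 0.41. Id1 and Id3 were the 2 higher genes, and both reached 20 CPM in KD only, so they could pass upward only. Id1 and Id3, inhibitors of differentiation that BMP signals induce, had 46.0 and 21.6 CPM in KD against 17.7 and 5.56 in Ctrl, ratios of 2.60 (interval 1.75 to 3.94) and 3.89 (1.99 to 8.31). Ctrl lay inside the background for both, and KD above it. In the Wnt list 2 of 12 passed higher and 0 lower, beside the same background shares, at a median of 0.41. Besides Wnt5a, which reached 20 CPM in KD only, this was Frzb, a secreted Wnt antagonist, with 201 CPM in KD and 84.9 in Ctrl (ratio 2.37, interval 1.98 to 2.84) and 12.5 to 118 in the others. Axin2, a feedback target of Wnt, went the other way under the minimum, with 5.52 CPM in KD and 12.6 in Ctrl. In the Fgf list 2 of 11 passed higher, Fgf3 and Fgf15 (23.9 CPM in KD and 9.61 in Ctrl), and 0 lower, at a median of 0.50. Both reached 20 CPM in KD only, so these 2 calls could not have gone the other way, and the background share is 4.03%. The ligand Fgf8 had 80.0 and 56.6 CPM, and the feedback inhibitor Spry2 55.2 and 60.2.

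The pluripotency list had its lowest sum in KD, with 1 member past 2-fold. Its 19 genes summed to 1493 CPM in KD and 2075 in Ctrl, with 1799 to 2628 in the background, so KD was below all 6 others. Pou5f1 alone made up most of the sum in KD and in Ctrl, so the sum mainly follows that gene. Of 6 members at 20 CPM, 1 passed 2-fold lower and 0 higher (background shares 1.26% and 4.03%), at a median log2 ratio of -0.50. A ratio above 1 was found for 1 of the 6, Sall4 (167 CPM in KD and 162 in Ctrl), and for 46.5% of all genes. Sox2, a core pluripotency factor that is kept in neural progenitors, had 47.3 CPM in KD and 117 in Ctrl (ratio 0.404, interval 0.317 to 0.511). WT1 stood at 87.7 CPM, WT2 at 101, pKO1 at 101, pKO2 at 95.6 and pInv at 73.9, so KD was the lowest library and Ctrl the highest. Pou5f1, the core factor Oct4, had 0.707 of its Ctrl level in KD (interval 0.670 to 0.746), under the lowest other library at 1353 CPM. Nanog had 12.0 CPM in KD and 15.2 in Ctrl, inside the background of 7.77 to 33.6. Below the minimum, Tdh, a threonine dehydrogenase of stem cells, had 1.38 CPM in KD and 12.1 in Ctrl, and the chromatin factor Utf1 5.52 and 13.6.

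Dppa4, a chromatin protein of pluripotent cells, had 15.6 CPM in KD and 40.4 in Ctrl (ratio 0.386, interval 0.251 to 0.584), with 38.8 to 58.6 in the others. Dnmt3l, a cofactor of the de novo DNA methyltransferases, had 8.27 CPM in KD and 25.3 in Ctrl (ratio 0.327, interval 0.180 to 0.571), with 15.6 to 36.2 in the others. All 6 members of the DNA methylation list at 20 CPM had a ratio under 1, at a median log2 ratio of -0.49. Of all genes, 46.5% had a ratio above 1. Dnmt3l alone passed 2-fold, however (lower, background share 1.26%). Dnmt3l and Dppa4 reached 20 CPM in Ctrl only and could pass downward only. Dnmt3b had 968 CPM in KD and 1318 in Ctrl. In the epiblast and neural list, 2 of 11 passed lower and 0 higher (background shares 1.26% and 4.03%), at a median of -0.18. The 2 lower genes were the POU factor Pou3f1, with 38.6 CPM in KD and 77.3 in Ctrl, and the zinc finger gene Sall2, with 21.6 and 43.5. A ratio above 1 was found for 4 of the 11, against 46.5% of all genes.

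**Figure D4:**
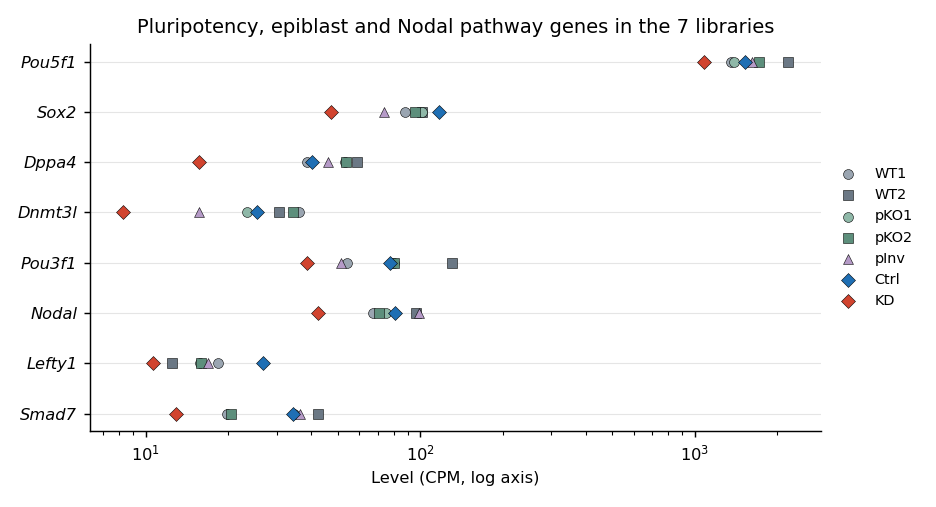
Levels of pluripotency, epiblast and Nodal pathway genes (rows) in CPM on a log axis, with 1 marker per library. The rows are members that stood lower in KD, while others of these lists, Lefty2, Tdgf1 and Cfc1 among them, stood higher and are not drawn. KD (red diamond) is the leftmost library in each row, and Ctrl (blue diamond) is the rightmost for Sox2 and Lefty1.

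The other genes with the largest differences downward were of mixed kinds. Spin2d, a spindlin family gene, had 27.6 CPM in KD and 116 in Ctrl, but 42.2 and 41.2 in WT1 and WT2, and shares sequence with close relatives, so its value is uncertain. Chrng, an acetylcholine receptor subunit, had 5.06 CPM in KD and 21.2 in Ctrl, Hspb11, an intraflagellar transport protein, 5.52 and 21.2, and the nuclease gene Isg20l2 11.5 and 35.9. In these 3, Ctrl was also the highest of 7, as it was for the adhesion gene Cntn2 (6.90 and 23.8) and the TNF receptor family gene Relt (6.44 and 20.2). Pkp2, a desmosome protein, had 12.0 CPM in KD and 33.4 in Ctrl, with 20.0 to 41.2 in the others. The phosphatase gene Ptpre had a ratio of 0.459 (interval 0.355 to 0.591), and Rbpms2, an RNA-binding protein gene, 253 and 482 (ratio 0.524, interval 0.471 to 0.583). The feature named for the microRNA Mir101c had 24.4 and 63.7 CPM, a count of polyadenylated RNA at that locus and not of the mature microRNA. A further copy of the histone gene H2ac23 had 372 CPM in KD and 2069 in Ctrl, but 3.58 to 434 in the others, and is uncertain because near-identical copies share reads.

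The glutathione transferase genes Gstp1 and Gstp2 are near-identical and differed in opposite directions. Gstp1 had 37.7 CPM in KD and 0 counts in Ctrl (at least 24.9-fold higher), and Gstp2 4.14 and 48.5 CPM (ratio 0.0852, interval 0.0378 to 0.169). Their sum was 41.8 CPM in KD and 48.5 in Ctrl, within 39.3 to 101 in the background. pKO2 had 28.6 CPM of Gstp1 and 35.9 of Gstp2, and the remaining libraries had 0 counts of Gstp1. The split between the 2 genes is therefore uncertain, while the sum differed little.

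Genes of macrophages and lysosomes were among those with the largest ratios. Macrophages are phagocytes of the immune system, rich in lysosomes, the organelles whose cathepsins and other hydrolases break down what is taken up. For 14 genes (0.275% of those at 20 CPM), KD had 20 CPM or more while each of the other 6 libraries had at most 3 counts. The same rule found 0 genes in each of the other libraries but pKO2, which had 2. Lyz2, the lysozyme of myeloid cells, had 379 counts (174 CPM) in KD and a single count in Ctrl, and the ratio of 345 has an interval that runs from 61.5 to 13647. The others had at most 2 counts of it. Gpnmb, a lysosomal glycoprotein of phagocytes, had 71.7 CPM in KD (at least 47.3-fold higher) and 0 counts in all 6 others. Adgre1, the macrophage antigen F4/80, had 28.5 CPM (at least 18.8-fold higher) and again 0 counts in all 6. Adam8, a metalloprotease of leukocytes, had 62.5 CPM in KD (at least 41.2-fold higher), and Mpeg1, a perforin-like protein of macrophages, 46.9 CPM (at least 30.9-fold higher). Each of them had 0 counts in Ctrl and at most 1 count elsewhere. Mpeg1 lies close to Dtx4, a gene described further on. The transcription factor gene Maf (22.5 CPM, at least 14.9-fold higher) and the signalling adaptor gene Pik3ap1 (21.1 CPM, at least 13.9-fold higher) belonged to the same 14 genes, as did the legumain protease gene Lgmn at 20.2 CPM. The other 6 of the 14 were Abat, Ccdc152, Rmc1 and Mir1934, described further on, the retinol dehydrogenase gene Rdh5 (25.3 CPM in KD and 0.506 in Ctrl) and the cystine transporter gene Slc7a11 (20.2 and 1.52).

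The macrophage list of 16 genes summed to 414 CPM in KD and 73.3 in Ctrl, with 70.1 to 134 in the background. Most of that background was C1qc, a complement gene with 76.8 CPM in KD, 71.3 in Ctrl and 67.5 to 130 in the others. Of the 4 members at 20 CPM, 3 passed 2-fold higher and 0 lower (background shares 4.03% and 1.26%): Lyz2, Adgre1 and Ctss. All 3 reached 20 CPM in KD only, so they could pass upward only. Csf1r, the receptor that macrophages depend on, had 12.4 CPM in KD and 0 counts in the other 6. The same held for Cd14 (18.4 CPM in KD) and Fcgr1 (14.2), and Mrc1 had 10.1. Not all defining markers were present. Ptprc, C1qa, Fcer1g and Aif1 had 0 counts in KD, which allows up to 1.38 CPM each, and Tyrobp had 2.76 CPM and Cd68 1.84. Further myeloid genes, gathered in a list of 30 after values were seen, summed to 690 CPM in KD, 91.5 in Ctrl and 77.2 to 106 in the background. They include the scavenger receptor gene Msr1 (15.2 CPM in KD), the chemokine receptor gene Ccr2 (10.1) and the lectin gene Clec4d (18.8), each with 0 counts in all 6 others. Whether such cells were present in the sample was not tested.

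Some lysosomal hydrolase genes stood higher in KD and others were level. A lysosome list was also chosen after values were seen. Of its 23 genes at 20 CPM, 10 passed 2-fold higher and 0 lower (background shares 4.03% and 1.26%), at a median log2 ratio of 0.98. A ratio below 1 was found for 6 of the 23, whereas 46.5% of all genes had a ratio above 1. Of the 10, 9 reached 20 CPM in KD only and could pass upward only. Ctsb, cathepsin B, had 150 CPM in KD and 17.2 in Ctrl (ratio 8.72, interval 6.11 to 12.8), with 13.1 to 16.3 in the others. Ctsl, cathepsin L, had 209 and 43.5 CPM (ratio 4.81, interval 3.81 to 6.13), with 11.4 to 73.2 in the others. Ctss, cathepsin S of antigen-presenting cells, had 66.7 CPM in KD and 0.506, a single count, in Ctrl (ratio 132, interval 23.3 to 5243). Other hydrolase and membrane genes were nearly level, with Lamp1 at 234 and 238 CPM, Cd63 at 489 and 496 and the cathepsin gene Ctsd at 314 and 241. A pair of genes that macrophages express, along with other cells, differed too. Apoe, apolipoprotein E, had 251 CPM in KD and 67.2 in Ctrl (ratio 3.74, interval 3.09 to 4.55), with 47.0 to 72.6 in the others. Lgals3, galectin-3, had 35.4 and 2.53 CPM (ratio 14.0, interval 5.75 to 44.3).

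**Figure D5:**
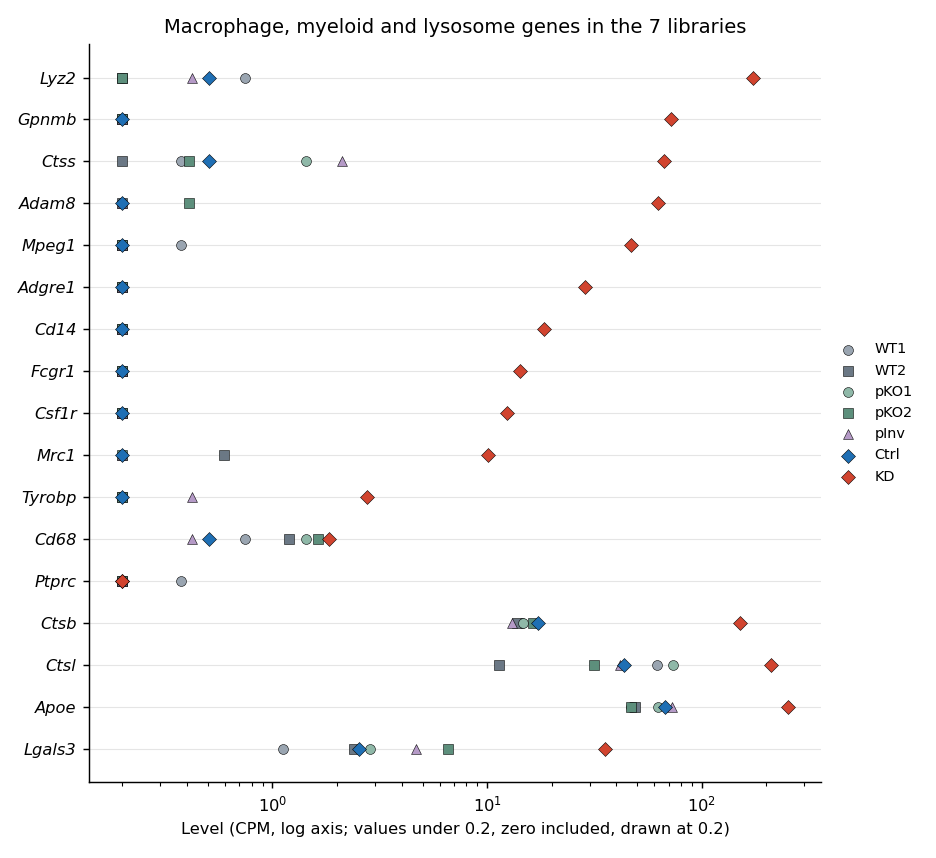
Levels of macrophage, myeloid and lysosome genes (rows) in CPM on a log axis, with 1 marker per library and values under 0.2, zero included, drawn at 0.2. KD (red diamond) stands alone to the right from Lyz2 (174 CPM) to Mrc1 (10.1 CPM), shares the left edge for Ptprc, and leads by a shorter distance for Ctsb, Ctsl, Apoe and Lgals3.

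Several of the largest ratios fell on genes that lie close to another gene in the reference. Best1, a chloride channel gene, had 404 CPM in KD and 5.56 in Ctrl (ratio 72.6, interval 40.4 to 146), beside the ferritin gene Fth1 with 358 and 227. Cdh23, a cadherin of hair cells, had 113 and 2.53 CPM (ratio 44.6, interval 18.8 to 138), beside the lysosomal saposin gene Psap with 174 and 88.5. Gys1, glycogen synthase, had 122 and 19.2 CPM beside the ferritin gene Ftl1 with 215 and 144. Ccdc152 (57.9 CPM in KD, at least 38.2-fold higher) lies with Selenop (3.22 and 2.02 CPM), and Rmc1 (29.4 CPM, at least 19.4-fold higher), of a lysosomal trafficking complex, with the cholesterol transporter gene Npc1 (16.5 and 12.6). Mpeg1 lies with Dtx4, itself among the higher genes (64.8 CPM in KD and 5.56 in Ctrl, ratio 11.7). The sources used here do not give the counting strand, so reads of such neighbours cannot be told apart. Over all calls, a protein-coding neighbour within 2000 bases was no more frequent, at 42.7% of the higher genes found in the reference against 48.7% of all genes. Abat, a transaminase of the transmitter GABA, had 80.9 CPM in KD and 0.506 in Ctrl (ratio 160, interval 28.4 to 6356) and has no such neighbour. The feature named for the microRNA Mir1934 had 40.5 and 0.506 CPM.

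Interferon-response genes, which cells switch on when they sense foreign nucleic acid, were at low levels throughout. The list of 12 summed to 103 CPM in KD, 28.3 in Ctrl and 24.1 to 35.8 in the background. Its only member at 20 CPM, Irf1, was level (ratio 1.01, interval 0.662 to 1.55). Under the minimum, Irf7, a master regulator of the response, had 14.7 CPM in KD and 0 counts in the 6 others (at least 9.70-fold higher), and Rsad2, the antiviral enzyme viperin, had 12.4 CPM in KD and 0 counts in Ctrl (at least 8.18-fold higher). Ddx58, the RNA sensor RIG-I, had 18.8 CPM in KD and 1.52 in Ctrl (ratio 12.4, interval 3.96 to 62.7), and Bst2, the surface protein tetherin, 10.6 and 0.506. Not all members were detected in KD. Of the 12, 4 had at most 3 counts in KD, and 3 of those had 0 counts. Outside the list, the interferon-inducible gene Slfn5 had 31.3 CPM in KD and 1.01 in Ctrl, with at most 2.11 in the others. Trex1, a nuclease that clears cytosolic DNA, had 29.4 and 1.52 CPM. It lies close to Shisa5 (51.9 and 32.9) and Atrip (6.44 and 7.08), whose reads cannot be told apart from its own. The class I histocompatibility gene H2-K1 had 60.7 and 10.1 CPM. The macrophage genes moved with these, and their part in them was not tested.

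Interferon signals act through a DNA element with the core GAAA, any 2 bases and GAAA again, which the factors of the Irf family and the Stat complex bind. To show what these promoters hold, the 250 bases before the RefSeq start (build GRCm38.p6, printed 5′ to 3′ on the gene's strand) are given for 4 genes that stood higher in KD and hold the element, with every match to those letters on either strand in capitals. Slfn5 lies at chr11:82951852-82952101 (plus strand), Ctss at chr3:95526536-95526785 (plus), Rsad2 at chr12:26456453-26456702 (minus) and Bst2 at chr8:71537473-71537722 (minus).
Slfn5: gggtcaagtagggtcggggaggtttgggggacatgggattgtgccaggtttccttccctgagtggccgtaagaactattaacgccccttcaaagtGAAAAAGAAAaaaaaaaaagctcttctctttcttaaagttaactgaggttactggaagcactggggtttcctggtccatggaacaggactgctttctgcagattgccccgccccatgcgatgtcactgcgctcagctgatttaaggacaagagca
Ctss: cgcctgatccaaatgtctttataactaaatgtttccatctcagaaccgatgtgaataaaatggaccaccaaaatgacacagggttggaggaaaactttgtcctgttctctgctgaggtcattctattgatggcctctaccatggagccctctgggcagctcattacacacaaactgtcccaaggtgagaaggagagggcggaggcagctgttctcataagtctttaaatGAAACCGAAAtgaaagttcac
Rsad2: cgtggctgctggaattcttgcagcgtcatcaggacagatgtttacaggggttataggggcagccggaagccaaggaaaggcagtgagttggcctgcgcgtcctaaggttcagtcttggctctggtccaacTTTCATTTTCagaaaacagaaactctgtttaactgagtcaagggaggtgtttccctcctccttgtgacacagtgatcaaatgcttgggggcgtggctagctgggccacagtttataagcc
Bst2: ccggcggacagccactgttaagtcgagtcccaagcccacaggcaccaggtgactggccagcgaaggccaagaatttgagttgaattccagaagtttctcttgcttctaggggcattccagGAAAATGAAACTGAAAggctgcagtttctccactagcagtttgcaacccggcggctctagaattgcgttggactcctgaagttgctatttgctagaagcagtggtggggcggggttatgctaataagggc
The match begins 155 bases before the start in Slfn5, 21 in Ctss and 120 in Rsad2, where it reads on the opposite strand, and 2 overlapping matches begin 130 and 124 bases before it in Bst2. In the interferon list, 6 of 11 genes with a promoter entry held a match, against 3.46% of all 27025 genes with an entry. The list is made of known interferon-response genes, so this share says nothing about KD. Among the 158 higher genes with an entry 7 (4.43%) held one, against 2.55% of genes at 20 CPM, and of the 14 genes at 3 counts or fewer elsewhere 9 had an entry and 0 held one. A match is a run of letters and not a shown binding site. The T-box letters AGGTGTGA, read on both strands, were in 0 of the 158 promoters and in 0.551% of those of genes at 20 CPM, and the letters GAGGAAGT of the Ets factor PU.1, which acts in macrophages, were in 5 (3.16%) against 2.85%.

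Near the threshold, the values show how finely the calls are drawn. Wiz (22.5 CPM in KD and 11.1 in Ctrl, ratio 2.03) and Mageh1 (21.6 and 10.6, 2.04) lie just inside it, and Foxm1 (21.1 and 10.6, 1.99) just outside. On the lower side Mmp25 (10.6 and 21.2, ratio 0.498) lies just inside, and Bop1 (24.8 and 49.5, 0.501) just outside. Of the 205 higher genes, 181 had under 100 CPM in KD. Requiring the interval to lie beyond 1.5-fold left 153 higher (3.01%) and 33 lower (0.649%). Without the 14 genes at 3 counts or fewer in every other library, 191 higher genes were left.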

How the data were processed

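Polyadenylated RNA was sequenced from its 3′ end with the Lexogen QuantSeq kit, per the labels' protocols. Per the submitters' processing notes, RSEM and the mouse build mm9 were used. The sources used here give no versions, trimming or strand. The authors deposited expected counts per gene without normalization, and they were rounded to whole numbers here. The TPM values, deposited by the authors and scaled to a fixed total, served in 1 alternative.

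The 24990 features were named from the RefSeq table of GRCm38 (23447 single genes, 375 merged, 1141 further copies, 27 unnamed). As a check, 77.6% of 17547 transcripts were longer than in GENCODE M21 by 1700 to 2300 bases, so a gene model can reach into its neighbour.

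Libraries were scaled by TMM (edgeR 4.0.16 in R 4.3.3, 10265 features), and intervals are exact Clopper-Pearson limits (scipy 1.17.1, Python 3.11.15). The steps were tested on simulated counts. As no molecular identifiers are named, intervals and floors cover only counting error. Text names Eomes, the 15 single genes each way whose interval lies farthest from 1, and up to 6 members and the defining members of each list; 4933432G23Rik, Gins2, Lsm8, Cenpw, Rdh5 and Slc7a11, the neighbours of named genes, the genes of the lysosome and myeloid lists, further interferon genes and the copy of H2ac23 were chosen after their values were seen. Members and lists were chosen with earlier results of these data known. Other scalings, level minimums, fold thresholds, control libraries and TPM were tried as alternatives. The FPKM values were not used.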

Additional observations from a re-analysis of the deposited data

How the results depend on the processing

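The KD to Ctrl ratios of Eomes and the genes chosen by size (31 in all) stayed within their counting interval under the 4 other scalings and TPM (155 of 155 values). Eomes crossed 1 with plain totals (1.03, against 0.948), and the 30 others kept their direction. The calls depended on the settings, with no test behind them. Against 205 genes higher and 64 lower, totals without 45S gave 333 higher, and leaving out Fras1 and Fgd5 as well (added after seeing the data) gave 348 higher. Plain totals gave 39 lower and TPM with a pseudocount of 1 gave 41. A minimum of 10 CPM gave 519 and 175, and one of 50 CPM gave 59 and 16. A 1.5-fold threshold gave 522 and 311, a 3-fold one 84 and 9, and an interval beyond 1.5-fold 33 lower. Other libraries in place of Ctrl, also added later, gave 147 and 51 with WT1, 785 and 498 with WT2, 145 and 54 with pKO1, 357 and 84 with pKO2, and 228 and 172 with pInv. The median log2 ratio of the nascent mesoderm list was 1.63 at a minimum of 10 CPM, and that of the vascular and cardiac list 1.28 at 10 CPM, 1.70 at 50 CPM and 1.75 without 45S. At 50 CPM the Fgf list turned from 0.50 to -0.13 and the Nodal list from -0.03 to 0.35. The interferon list went from 0.01 to 3.16 at 10 CPM and 1.87 without 45S, and ribosomal genes from -0.07 to 0.05 with plain totals. KD lay outside the range of the 6 other libraries for 1909 of the 5083 genes, as the highest for 17.8% and the lowest for 19.7%. Ctrl was the highest of the 7 for 11.5% and the lowest for 8.20%. With 1 background library left out the KD count was 2089 to 2183. A narrower range can only keep or raise that count, so these values are no check of it. Lower minimums test more genes and higher ones fewer. Totals without 45S are smaller, so a minimum of 20 CPM then also admits genes with fewer counts. The median log2 ratio of all genes at the minimum was 0.03 with those totals, against -0.03. How far this accounts for the counts under that scaling was not tested, and for the other scalings the cause was not tested either. No paired analysis was possible because KD and Ctrl are 1 library each and result from no test. Depth limits genes under 20 CPM, where a count of 0 allows up to 1.52 CPM in Ctrl.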

Other observations

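Some genes counted as higher in KD had KD near the background and Ctrl low. Gins2, a subunit of the replicative helicase, had 23.4 CPM in KD and 4.55 in Ctrl, with 7.17 to 39.3 in the other 5 libraries. Hprt, a purine salvage enzyme often used as a reference gene, had 22.1 and 9.61 CPM, and pKO2 had 8.99. The centromere gene Cenpw had 102 and 34.4 CPM, and Siah1b, a ubiquitin ligase, had 21.6 and 6.57, with 7.17 to 22.8. The replication and mitosis list as a whole had 0 of 26 genes past 2-fold (background shares 4.03% higher and 1.26% lower). Its median log2 ratio was 0.11 beside -0.03 for all genes.

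Iron and lipid genes, as counted, moved by less than 2-fold for the most part. The background shares over all genes were 4.03% higher and 1.26% lower. In the iron list 0 of 6 genes passed, at a median log2 ratio of 0.61, and the ferritin subunits Fth1 and Ftl1 were the highest of 7 in KD. Reads of Fth1 and Ftl1 cannot be told apart from those of their neighbours Best1 and Gys1, so their ratios are uncertain. The iron-responsive regulator Ireb2 had 37.7 CPM in KD and 24.3 in Ctrl. In the cholesterol and fatty acid list 1 of 18 passed, the sterol desaturase gene Sc5d (22.5 and 9.61 CPM). Sc5d reached 20 CPM in KD only, so it could pass upward only. Ctrl was the lowest of 7 for 6 of these 18, against 8.20% of all genes. Among imprinted genes, 9 of 10 at 20 CPM had a ratio above 1 (46.5% of all genes did), with 0 past 2-fold. Peg3 had 228 CPM in KD and 131 in Ctrl, with 49.0 to 180 in the others, and the noncoding Rian 300 and 186, with 106 to 245. In the hypoxia and glycolysis list 1 of 19 passed each way, the stress gene Ddit4 (141 and 68.2 CPM) and the kinase gene Pdk1 (20.7 and 49.0). Ribosomal protein genes had 0 of 75 past 2-fold, at a median of -0.07.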
